A study of Mus musculus with 5 samples.

Results

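The 35 autophagy machinery genes described here are the genes for the proteins that start, build and close the autophagosome, taken from a list of named members among the 21951 protein-coding genes of the GENCODE M21 annotation of mouse (mm10). They share a function, the rule that defines them uses no measured value, and all 35 were found in the annotation by symbol. The list was nevertheless chosen with earlier results of these data known. JunB, a subunit of the AP-1 transcription factor, was mapped by CUT&RUN-seq in muscle stem cells (MuSCs) freshly sorted from mouse hindlimb muscle, with 3 libraries from young mice (young replicates 1 to 3) and a single one from aged mice. Another library mapped H3K27ac, an acetylated histone residue found at promoters and enhancers in use. In CUT&RUN an antibody directs a nuclease to the bound protein, the released DNA is sequenced, and regions with more fragments than their surroundings are called as peaks. The study's methods give C57BL/6 for the aged mice and name a sort on VCAM+ cells that lack CD45, CD31 and SCA1, as well as a GFP+ sort for reporter mice with and without JunB. The peak names of young replicate 1 carry the word gfp, and the sort and genotype behind that library are not settled by the sources used here. The age in months, the number of mice pooled in a library and the age behind the H3K27ac library are not given for these libraries in the sources used here, and the series' own design text speaks of mice given DMSO or MVC (Maraviroc) where the sample labels name Young and Aged. The labels were followed.

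Autophagy encloses cytoplasm in a double membrane and delivers it to the lysosome. The ULK1 kinase complex starts the process, the class III PI3-kinase complexes make the lipid PI3P on the forming membrane, ATG9 vesicles and ATG2 bring and transfer lipid, WIPI proteins bind PI3P, and 2 ubiquitin-like conjugation systems attach ATG8 proteins (LC3 and GABARAP) to the membrane, where receptors such as p62 dock their cargo. In MuSCs, autophagy is known for its part in keeping the cells quiescent, and its decline with age is tied to senescence of these cells.

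A gene was counted when a peak of a library lay within 3 kb of the start of any of its transcripts (a promoter peak), or with its nearest base 3 to 50 kb away (a distal peak). The young lists held 9534, 4884 and 3863 peaks, the aged list 14123 and the H3K27ac list 39865. The lists had not passed 1 threshold: the weakest peak had a −log10 p of 3.01 in the lists of young replicate 1 and the aged mice but 5.33 and 5.22 in those of young replicates 2 and 3. Fold enrichment, the height of a peak over the local background of its own library, had a median of 5.20, 7.74 and 8.11 over the young lists and 4.93 over the aged list, so each value below is best read within its library. Values of the young libraries are given in the order of their replicate numbers. The percentile of a peak among that library's promoter peaks is given beside the fold enrichment for promoters called in all 4 libraries. Promoter peaks numbered 2341, 1561 and 1182 in the young lists and 5026 in the aged list. A list with more weak peaks gives a peak a higher percentile, so percentiles of aged and young peaks are not like for like. Peak lists hold no read counts, so the depth behind each peak is unknown. The H3K27ac library marked the promoters of 6 of 9 MuSC genes, with Pax7, Myf5 and Calcr unmarked, and of 1 of 5 haematopoietic, 1 of 4 endothelial, 1 of 4 fibro-adipogenic and 1 of 4 muscle fibre genes (Csf1r, Pecam1, Dcn and Myh1). Pax7, the defining gene of MuSCs, therefore had no H3K27ac promoter peak in a library labelled MuSC. JunB promoter peaks were found at 1, 2, 0 and 4 of the 9 MuSC genes (young replicates 1 to 3, then aged). They were found at 1 of 5 haematopoietic genes in each of the 4 libraries, the macrophage gene Cd68, with Ptprc, Adgre1, Csf1r and Itgam at none. The endothelial genes had none in any library, the fibro-adipogenic genes 1 of 4 in the aged library alone, and the muscle fibre genes 1, 1, 0 and 1 of 4. The part of other cells in the results below was not tested.

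JunB was found at the promoters of 16 of the 35 autophagy genes in at least 1 library, always including the aged one. In the aged library that was 45.7% of the members, against 23.9% of all protein-coding genes and 42.4% of those with an H3K27ac promoter peak. Of the 16, 6 had a promoter peak in every JunB library: Gabarapl2, Sqstm1, Uvrag, Wipi1, Atg16l2 and Atg9b. Gabarapl2, Sqstm1, Uvrag and Wipi1 code for an ATG8 protein, the receptor p62, a PI3-kinase subunit and a PI3P-binding protein. Atg16l2 and Atg9b code for a relative of the ATG16L1 scaffold and an ATG9 protein. Wipi1 and Atg9b belong to the same group of members below. These 6 genes were 17.1% of the members (exact 95% interval 6.56 to 33.6%), against 4.40% of all protein-coding genes (965 genes). The same share among genes with an H3K27ac promoter peak was not computed. The sequences under the summits of 4 of these promoter regions follow, as the regions had a peak in every JunB library. The sequences are centred on the summit of the library with the highest −log10 p there. They are 5′ to 3′ on the gene's strand, from the GRCm38.p6 assembly (the mm10 coordinates), 50 bases to each side of the summit, and the summit base is in capitals.
Gabarapl2, young replicate 2, chr8:111940217-111940317, plus strand: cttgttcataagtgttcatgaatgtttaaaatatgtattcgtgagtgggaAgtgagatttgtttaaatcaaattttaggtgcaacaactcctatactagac
Sqstm1, young replicate 2, chr11:50213306-50213406, minus strand: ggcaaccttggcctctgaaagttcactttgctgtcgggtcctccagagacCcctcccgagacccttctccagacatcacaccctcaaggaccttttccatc
Uvrag, young replicate 1, chr7:99141595-99141695, minus strand: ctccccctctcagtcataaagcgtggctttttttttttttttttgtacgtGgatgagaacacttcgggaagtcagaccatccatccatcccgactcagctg
Wipi1, aged, chr11:109611667-109611767, minus strand: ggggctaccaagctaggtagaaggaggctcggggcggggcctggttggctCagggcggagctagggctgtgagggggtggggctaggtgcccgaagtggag
The windows differed in base composition, with a GC content of 31.7% at Gabarapl2, 46.5% at Uvrag, 56.4% at Sqstm1 and 69.3% at Wipi1, and none of them held the AP-1 motif TGACTCA. Summits of other libraries can lie outside these windows. At Sqstm1 the printed summit was at −2529 bp from the start, and those of young replicate 1 and aged mice at −2262 and −2204 bp.

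Per library, promoter peaks were found at 7 members in young replicate 1 (20%, exact 95% interval 8.44 to 36.9%), against 11.1% of all protein-coding genes. Young replicate 2 had 7 members as well, against 7.79% of all genes, and young replicate 3 had 6 (17.1%, 6.56 to 33.6%) against 5.95%. The aged library had 16 members (45.7%, 28.8 to 63.4%) against 23.9%, and the H3K27ac library had 33 (94.3%, 80.8 to 99.3%) against 49.8%. The intervals cover counting error only. The members' share was thus 1.80, 2.57 and 2.88 times that of all genes in the young libraries and 1.91 times in the aged library. The aged count of 16 lay above the young counts of 6.67 ± 0.577 (SD, n = 3), but the share of all genes was higher in the aged library too, and the aged ratio lay inside the range of the young ratios. With 1 aged library no test between ages was possible. When the 3863 peaks with the highest −log10 p were taken from each list, the aged count fell to 7 members (20%, against 8.83% of all genes). That of young replicate 1 fell to 4 (11.4%, against 5.52%), and young replicates 2 and 3 had 6 each. By construction this drops the weaker peaks of the longer lists. With a −log10 p of at least 5.33 in all lists, the young counts were 6, 7 and 6 and the aged count 13 (37.1%, against 20.03% of all genes). With a −log10 q of at least 2 the aged count was 14 (40%, against 21.8%). The size of the difference between the ages therefore depends on how the lists are matched.

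**Figure D1:**
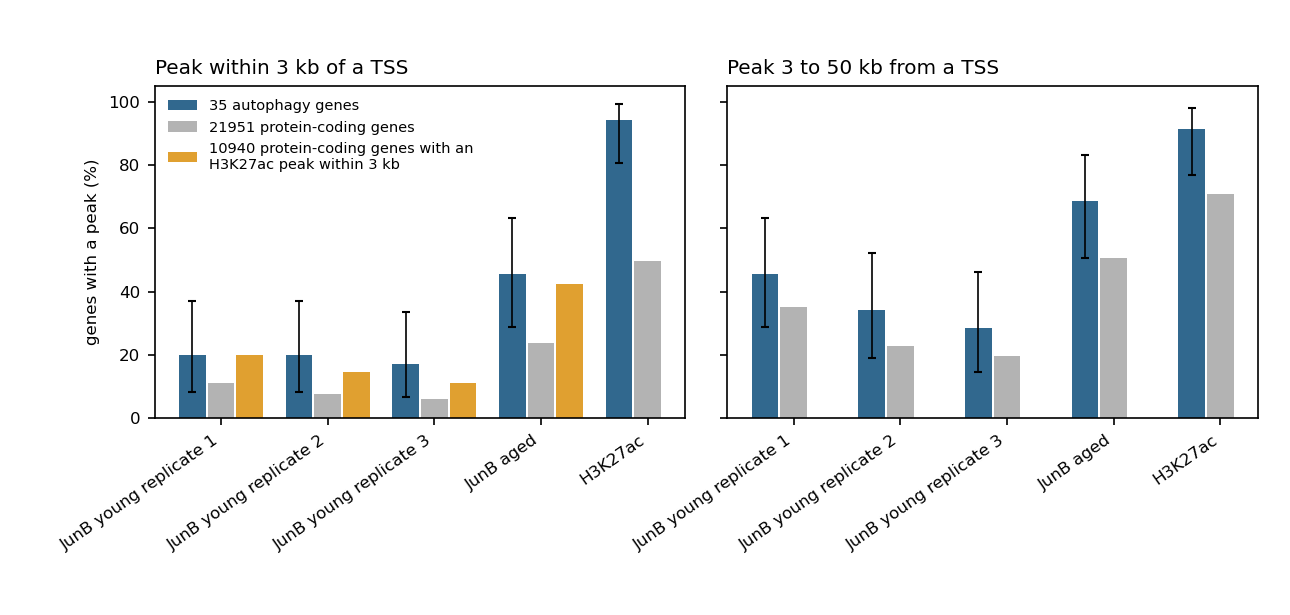
Share of genes with a peak within 3 kb of a TSS (left) and 3 to 50 kb from a TSS (right) in each of the 5 libraries. Blue bars are the 35 autophagy genes with exact 95% binomial intervals, grey bars all 21951 protein-coding genes and orange bars the 10940 genes with an H3K27ac promoter peak. The blue bar is above the grey bar in every library, and at promoters it is level with the orange bar in young replicate 1 (20% of all 35 members, 20% of the marked genes).

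Nearly all autophagy promoters carried H3K27ac, and marked promoters in general more often had a JunB peak. Among the 33 members and the 10940 genes with an H3K27ac promoter peak, JunB promoter peaks were found in young replicate 1 at 21.2% of the members and 20% of the genes, in young replicate 2 at 21.2% and 14.5%, in young replicate 3 at 18.2% and 11.0%, and in the aged library at 48.5% and 42.4%. The ratio of the shares was then 1.06, 1.46, 1.66 and 1.14. Against marked genes, the members' share was therefore near the background in young replicate 1 and the aged library. Members also had more annotated starts than other genes, with a median of 5 against 3, and 10 of the 35 (28.6%) had the start of another coding gene within 3 kb, against 19.2% of all genes. The part of these properties in the shares was not tested.

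**Figure D2:**
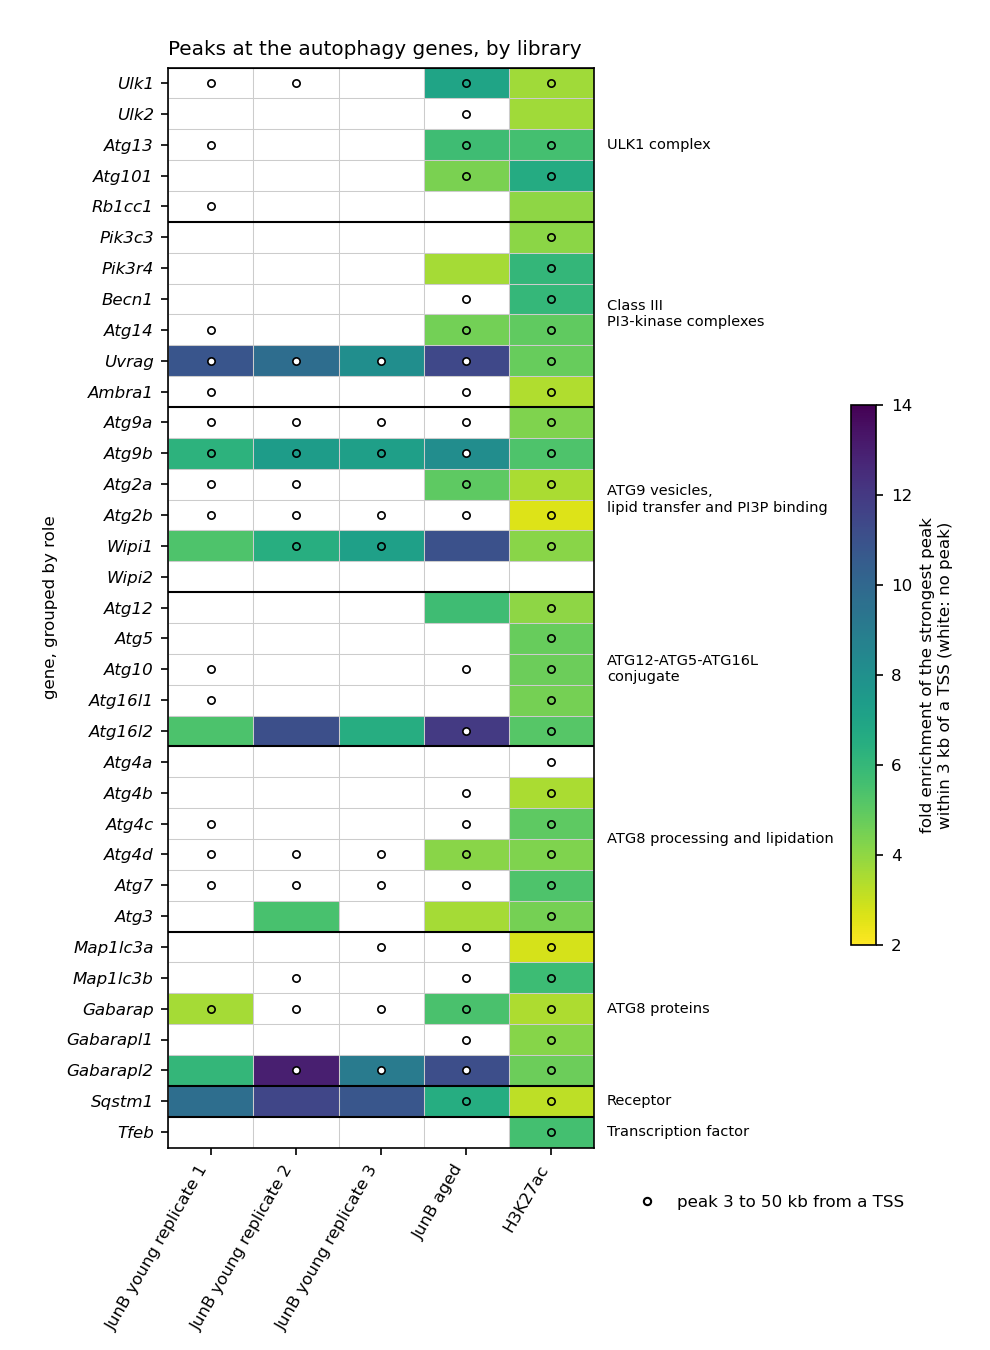
Peaks at each of the 35 genes (rows, grouped by role) in the 5 libraries (columns). Colour gives the fold enrichment of the strongest peak within 3 kb of a TSS, white means no such peak, and a circle marks a peak 3 to 50 kb from a TSS. Filled cells run across all 4 JunB columns at 6 genes (Uvrag, Atg9b, Wipi1, Atg16l2, Gabarapl2 and Sqstm1), and the H3K27ac column is filled at all genes but Atg4a and Wipi2.

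In the ULK1 complex, no member had a JunB promoter peak in a young library, and 3 of 5 had one in the aged library. Among all protein-coding genes the shares were 11.1%, 7.79% and 5.95% for young replicates 1 to 3, and 23.9% for aged mice. With 5 genes the counts are too small to separate from these shares, and no contrast of ages was tested. With equal list lengths, Ulk1 alone of the 3 kept its aged promoter peak. Ulk1, the kinase itself, had an aged peak (chr5:110808204-110808736, fold enrichment 6.97) with its summit 1674 bp downstream of a start, in an intron of the gene. It was the strongest of the members' promoter peaks seen in the aged library alone and stood at the 80.2 percentile of that library's promoter peaks. Its sequence at the summit is shown because Ulk1 is the 1 member called in aged mice and not in young ones when all lists have 3863 peaks.
Ulk1, aged, chr5:110808329-110808429, minus strand: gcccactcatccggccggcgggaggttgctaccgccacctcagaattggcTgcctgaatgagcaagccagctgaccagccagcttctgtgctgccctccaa
Atg13, the regulatory subunit, had an aged peak of fold enrichment 5.71 (chr2:91710594-91711092), whose summit lay at −203 bp relative to the start of Atg13 and 73 bp from the start of Harbi1. Atg101, which stabilises ATG13, had an aged peak of 4.44 over its start (chr15:101284084-101284328) and the highest H3K27ac fold enrichment of all members, 6.67. Ulk2, the second kinase, and Rb1cc1, the FIP200 scaffold, had no JunB promoter peak, although both promoters carried H3K27ac (3.70 and 4.05). Each of the 5 genes had a distal JunB peak in at least 1 library.

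Among the class III PI3-kinase genes, JunB was found in every library at Uvrag alone, whose protein joins the Beclin 1 complex that acts in endosome traffic and autophagosome maturation. At Uvrag the young fold enrichments were 10.8, 9.77 and 8.13 and the aged one 11.4. The 4 peaks covered the same stretch (chr7:99141120-99141882), with summits 423 to 556 bp upstream of the start, and the aged peak stood at the 98.5 percentile of its library against 89.1, 76.6 and 53.0 in the young libraries. Atg14, the subunit that directs the kinase to the autophagosome, had an aged peak of 4.54 (chr14:47568038-47568405), in an intron and 219 bp downstream of one of its starts. Pik3r4, the VPS15 subunit, had one of 3.63 over its start (chr9:105642870-105643114), at the 8.04 percentile and among the weakest promoter peaks of that library. No JunB promoter peak was found at Pik3c3, the catalytic VPS34 subunit, at Becn1, or at Ambra1, a regulator of the complex. All 6 promoters had an H3K27ac peak, with fold enrichment from 3.44 at Ambra1 to 6.04 at Pik3r4.

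In the group that supplies lipid and reads PI3P, Wipi1 and Atg9b had promoter peaks in all 4 JunB libraries. Wipi1, a PI3P-binding protein, had young fold enrichments of 5.35, 6.48 and 7.24 and an aged one of 11.0 (chr11:109611479-109611993). The aged value was the highest of the 4 and stood at the 98.0 percentile of aged promoter peaks, while the young ones stood at the 42.8, 29.8 and 36.7 percentiles of theirs. Atg9b, one of the lipid scramblases of the ATG9 vesicle, had young values of 6.29, 7.41 and 7.27 and an aged value of 8.17 (chr5:24393577-24394775). These peaks lay 1434 bp or more upstream of Atg9b, at the start of the neighbouring gene Abcb8, and those of young replicates 2 and 3 did not overlap each other: their summits were at −2418 and −1600 bp, and the aged library had a peak at each place. The young peaks stood at the 60.1, 49.3 and 37.6 percentiles, the stronger aged peak at the 89.6 and the weaker one at the 39.6. Atg2a, a lipid transfer protein, had an aged promoter peak only (chr19:6242167-6242655, 4.99). Atg9a, Atg2b and Wipi2 had no JunB promoter peak, and Wipi2 had no peak of any library within 50 kb.

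In the conjugation system of ATG12, ATG5 and ATG16L, Atg16l2 had promoter peaks in all 4 libraries. Its protein resembles the ATG16L1 scaffold. The young fold enrichments were 5.40, 11.1 and 6.54 and the aged one 11.9 (chr7:101301774-101302371), the highest of all aged member peaks and at the 99.0 percentile of that library. The young peaks stood at the 47.4, 85.4 and 23.9 percentiles, all below the aged one. Atg12, the ubiquitin-like protein, had an aged peak of 5.71 over its start (chr18:46741363-46741836) and no young peak. Atg5, to which ATG12 is attached, Atg10, the enzyme that attaches it, and Atg16l1 had none, although their promoters carried H3K27ac at 4.77, 4.69 and 4.53.

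The genes for processing and lipidation of ATG8 had few JunB promoter peaks. Atg3, the E2-like enzyme of lipidation, had a peak in young replicate 2 (5.48, chr16:45158372-45158620) and an aged one (3.63), both within 49 bp of the start of its neighbour Slc35a5. Atg4d, one of the ATG4 proteases, had an aged peak of 4.15 over its start (chr9:21264909-21265466). Atg4a, Atg4b, Atg4c and Atg7, the E1-like enzyme of both systems, had none. Atg7 nevertheless had 6 H3K27ac promoter peaks and 22 distal ones, the most of any member, over starts that span 213054 bp.

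Of the 5 ATG8 genes, Gabarapl2 had a promoter peak in all 4 libraries and Gabarap in 2. At Gabarapl2 the young fold enrichments were 6.08, 13.0 and 9.06 and the aged one 11.2 (chr8:111939942-111940571). The aged value lay between those of young replicates 2 and 3, while by percentile the aged peak (98.2) stood above all 3 young ones (56.1, 91.2 and 65.4). Their summits lay 342 to 436 bp upstream of the start. Those of young replicates 1 and 2 were in the A and T rich stretch printed above. Gabarap had peaks of 3.61 (young replicate 1) and 5.42 (aged; chr11:69991065-69991874), the former at the 5.04 percentile of its library. Map1lc3a and Map1lc3b, which code for LC3 proteins, and Gabarapl1 had no JunB promoter peak, and Map1lc3a had the second lowest H3K27ac fold enrichment of the members, 2.76 (Atg2b had 2.63).

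Sqstm1, which codes for the receptor p62, had the highest −log10 p of all members in each young library (50.8, 56.8 and 34.2). Its young fold enrichments were 9.72, 11.5 and 10.8 and the aged one 6.56 (chr11:50212899-50213559). The aged value was below all 3 young values, opposite to Wipi1, and at the 75.2 percentile of its library against 85.0, 87.3 and 81.6 in the young libraries. The region lay 2072 bp upstream of Sqstm1 at its nearest base, in an intron of the neighbouring gene Mgat4b. A second, weaker peak of young replicate 1 (3.94, chr11:50210863-50211112) lay 36 bp from the start of Sqstm1. Tfeb, the transcription factor that activates lysosome and autophagy genes, had no JunB peak within 50 kb in any library, and an H3K27ac promoter peak of 5.58.

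**Figure D3:**
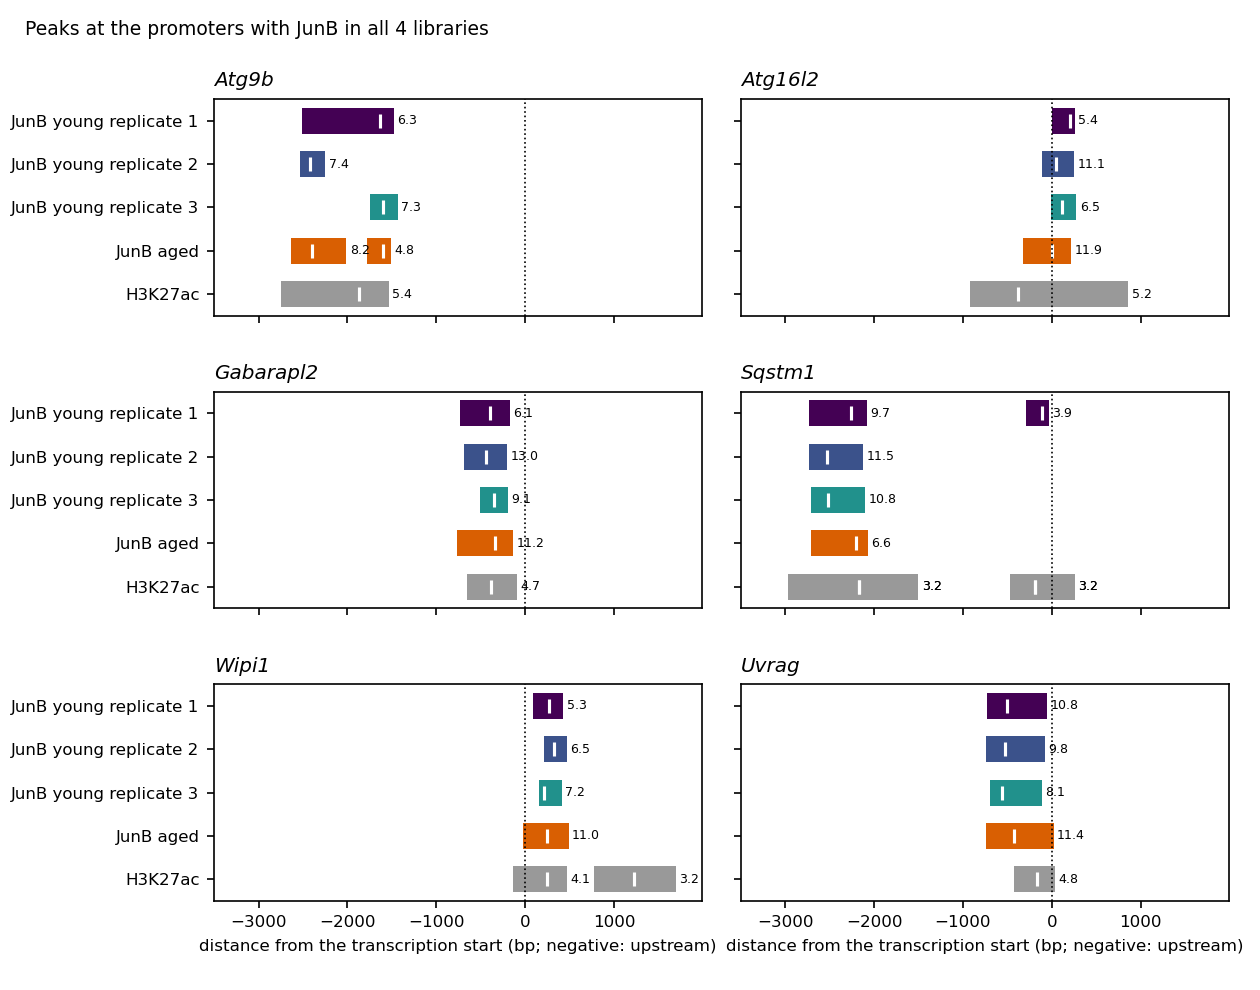
Position of the peaks at the 6 promoters with JunB in all 4 libraries, as distance in bp from the gene's annotated 5′ end (negative is upstream), one row per library. Bars are peaks, white ticks their summits and numbers their fold enrichment. At Gabarapl2 and Uvrag the JunB summits sit 342 to 556 bp upstream of the start, whereas at Sqstm1 and Atg9b the shared peaks lie 1434 bp or more upstream.

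Sqstm1 was the only member with an AP-1 motif under the promoter peaks of all 4 JunB libraries. The match in common to all 4 libraries and the second one, under the aged peak and those of young replicates 1 and 3, are shown with 30 bases to each side, the motif in capitals, beside a match at Atg16l2 that lay under its 3 young peaks and one at Atg9b under the peak of young replicate 3. A further match at Atg9b (chr5:24393663-24393669, −1523 bp from the start), under the peaks of young replicates 1 and 3 and of aged mice, is given by position only.
Sqstm1, chr11:50213199-50213265, minus strand: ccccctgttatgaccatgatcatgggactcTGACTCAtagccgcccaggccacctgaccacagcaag
Sqstm1, chr11:50212903-50212969, minus strand: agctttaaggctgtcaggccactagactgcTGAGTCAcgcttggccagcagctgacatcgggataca
Atg16l2, chr7:101301773-101301839, minus strand: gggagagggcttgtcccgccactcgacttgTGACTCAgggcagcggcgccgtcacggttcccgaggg
Atg9b, chr5:24393552-24393618, minus strand: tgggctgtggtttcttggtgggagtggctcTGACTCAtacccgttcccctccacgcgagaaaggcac
AP-1 was sought as TGACTCA or TGAGTCA. In whole peaks it was found in 4 of 8, 2 of 7 and 3 of 6 young promoter peaks of members and in 2 of 17 aged ones, beside 30.3%, 28.2%, 29.5% and 17.7% of all promoter peaks. Within 50 bp of the summit it was found in 1, 0, 0 and 0 of these peaks, beside 4.75%, 3.54%, 5.26% and 2.75%. The 1 peak was that of young replicate 1 at Atg16l2, where the match lay 39 bp from the summit. The cyclic AMP response element TGACGTCA, which AP-1 dimers with ATF proteins can bind, lay under the aged peak and that of young replicate 2 at Atg16l2. The core of the CLEAR element bound by TFEB, TCACGTGA, was in none of the members' JunB promoter peaks. These matches are descriptions of letters and not of binding sites.

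The promoters of the members were also read from the RefSeq windows of 250 bases before to 50 bases after a start (GRCm38.p6), which were held for 29 of the 35 genes as 33 windows. No member window held AP-1, beside 4.65% of the 20150 windows of protein-coding genes. TGACGTCA was in 2 member windows, those of Atg16l2 and Atg5, or 6.06% beside 2.31%, and TCACGTGA in 1, that of Atg3, or 3.03% beside 1.26%. The members' windows had a median of 61.7% G and C against 57% in all genes, and a median observed to expected CpG ratio of 0.754 against 0.588.

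The 8 members whose JunB promoter peaks were called in aged mice but in no young replicate were Ulk1, Atg13, Atg101, Atg14, Pik3r4, Atg2a, Atg12 and Atg4d. They were 22.9% of the members against 13.1% of all protein-coding genes. The same share among genes with an H3K27ac promoter peak, which 33 of the 35 members had, was not computed. No member had a promoter peak in a young library without one in the aged library, against 1.95% of all genes. A count of 0 of 35 allows a share of up to 10.003% (exact upper bound). Their fold enrichment ran from 3.63 at Pik3r4 to 6.97 at Ulk1, below the aged values of 8.17 to 11.9 at Atg9b, Wipi1, Gabarapl2, Uvrag and Atg16l2, while Sqstm1 with 6.56 lay among them. With equal list lengths, Ulk1 alone was left of the 8 (2.86% of the members against 3.21% of all genes), so the excess over all genes was lost. With a common −log10 p the aged-only count was 7 (20%, against 10.1% of all genes), and with a −log10 q of at least 2 it was 8 (22.9%, against 11.7%).

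**Figure D4:**
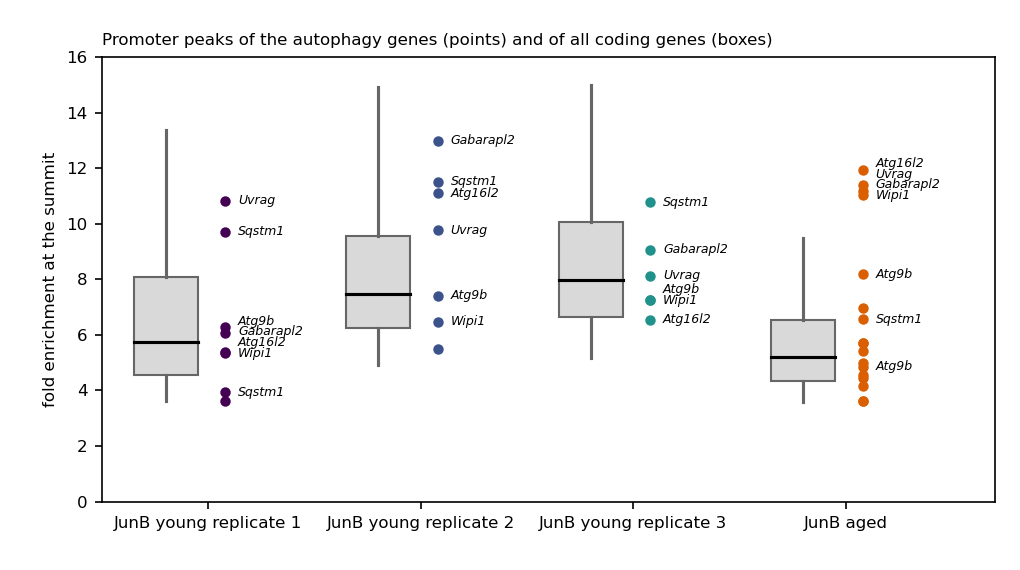
Fold enrichment of JunB promoter peaks in each library: points are the peaks of autophagy genes, with the names of the 6 genes bound in all libraries, boxes the quartiles and median of all promoter peaks of coding genes, and whiskers the 5th and 95th percentiles. In the aged library Atg16l2, Uvrag, Gabarapl2 and Wipi1 (11.0 to 11.9) lie above the whisker, which ends at 9.47.

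The members' promoter peaks were not uniformly stronger than others. Their median fold enrichment was 5.74 against 5.73 for all promoter peaks in young replicate 1, 9.77 against 7.49 in young replicate 2, 7.70 against 7.96 in young replicate 3 and 5.71 against 5.19 in the aged library. All of them overlapped an H3K27ac peak (8 of 8, 7 of 7, 6 of 6 and 17 of 17), beside 67.8%, 73.7%, 72.3% and 67.9% of all JunB promoter peaks. The latter include peaks at unmarked genes, whereas all 16 members concerned were marked. The share over JunB promoter peaks of marked genes alone was not computed. The strongest H3K27ac promoter peak had a median fold enrichment of 4.59 at the 16 members with a JunB promoter peak and 4.33 at the 17 marked members without one, against 4.29 over all marked genes. The 2 unmarked members, Atg4a and Wipi2, had no JunB peak within 50 kb either.

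Merged over the libraries, the promoter peaks formed 17 regions at the 16 genes. Of these, 6 were called in all 4 libraries, 2 in 2 libraries, 8 in the aged library alone and 1 in young replicate 1 alone. The member's own start was the nearest coding start at 12 of the 17. At the other 5, at Atg3, Atg9b, Atg13 and Sqstm1 (2 regions), it was that of Slc35a5, Abcb8, Harbi1 and Mgat4b, so that JunB at 2 of the 6 genes bound in every library lay closer to a neighbour.

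Distal peaks were common at the members and at genes in general. They were found at 16 members in young replicate 1 (45.7%, against 35.3% of all genes), at 12 in young replicate 2 (34.3%, against 22.9%) and at 10 in young replicate 3 (28.6%, against 19.7%), which is 12.7 ± 3.06 (SD, n = 3). The aged library had 24 (68.6%, against 50.6%) and the H3K27ac library 32 (91.4%, against 70.9%). With equal list lengths the aged count was 8 (22.9%, against 21.9%). The 65 distal regions of 27 members were each counted once, also where 2 members share a region. Of these, 32 overlapped an H3K27ac peak, 31 were called in the aged library alone and 19 had the member's start as the nearest coding start. The same shares over all distal JunB regions were not computed. Ambra1 and Atg13 lie close together and share the region chr2:91696080-91696708.

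The distal regions found in all 4 JunB libraries, 7 regions at 6 members, each lay nearest to another gene. Atg9a, the ubiquitous ATG9 protein, had one 44262 bp away at the start of Dnajb2 (chr1:75236458-75237218), with young fold enrichments of 10.5, 10.2 and 10.6 and an aged one of 8.62. Atg4d had one 23006 bp away, 68 bp from the start of Cdkn2d (chr9:21291084-21291679), with young values of 8.78, 9.89 and 10.6 and an aged value of 9.43. The others were at Bdkrb1 for Atg2b, a lipid transfer protein, in an intron of Vgll4 for Atg7, at Abcb8 for Atg9b, and near Slc2a4 and Elp5 for Gabarap. In these 5 regions the fold enrichment of the strongest peak of each library ran from 4.98 to 9.69, both at Gabarap. A weaker aged peak in the Atg2b region had 3.35.

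Distal peaks in several libraries also lay within a member itself, at Uvrag. Uvrag had an intronic peak in all 3 young libraries and not in the aged library (chr7:98928459-98928798), with fold enrichments of 6.55, 8.11 and 9.05. A second intronic region of Uvrag (chr7:99024711-99025021) had 10.03 and 8.16 in the first and second young libraries, 7.56 in aged mice and no peak in young replicate 3. Both overlapped H3K27ac peaks, and Uvrag had 12 distal H3K27ac peaks. Their summit windows are shown since they were the only distal regions called in 3 libraries whose nearest coding start was the member's.
Uvrag, young replicate 3, chr7:98928607-98928707, minus strand: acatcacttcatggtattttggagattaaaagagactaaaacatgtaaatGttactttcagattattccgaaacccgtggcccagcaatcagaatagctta
Uvrag, young replicate 1, chr7:99024752-99024852, minus strand: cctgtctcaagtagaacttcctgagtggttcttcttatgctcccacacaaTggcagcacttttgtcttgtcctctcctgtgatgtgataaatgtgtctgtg
Neither window held AP-1. Within 50 bp of a distal summit, AP-1 was found near Gabarapl2 in young replicates 2 and 3 (chr8:111923413-111923728) and near Atg14 in young replicate 1 (chr14:47533486-47533968), and in none of the 53 distal peaks of the aged library. That is 1 of 28, 1 of 19, 1 of 13 and 0 of 53 distal peaks, beside 5.43%, 5.36%, 6.76% and 3.65% of all distal JunB peaks. No JunB peak of any library lay within 50 kb of Atg4a, Atg5, Pik3c3, Tfeb and Wipi2.

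The further genes of the pathway, also chosen with earlier results of these data known, had promoter peaks at a larger share than all genes in each library. Of 59 genes for receptors, upstream control, autophagosome formation and fusion, and the lysosome, 17 (28.8%), 11 (18.6%) and 9 (15.3%) had a young promoter peak by replicate, 30 (50.8%) in the aged library and 54 (91.5%) in the H3K27ac library. The shares of all protein-coding genes were 11.1%, 7.79%, 5.95%, 23.9% and 49.8%. Among genes with an H3K27ac promoter peak they were 20%, 14.5%, 11.0% and 42.4% in the JunB libraries. The lysosome genes had the most in the aged library, 12 of 18 (66.7%), against 4, 3 and 3 in the young libraries (22.2%, 16.7% and 16.7%). The upstream control genes had 7, 3, 2 and 9 of 18 (38.9%, 16.7%, 11.1% and 50%). The receptors other than p62 had 3, 2, 2 and 5 of 10 (30%, 20%, 20% and 50%). The autophagosome and fusion genes had 3, 3, 2 and 4 of 13 (23.1%, 23.1%, 15.4% and 30.8%). JunB was found in all 4 libraries at 5 of the 59, beside 6 of the 35 members and 4.40% of all genes. Tmem41b and Vmp1, scramblases of the endoplasmic reticulum that act in autophagosome formation, had young fold enrichments of 12.2, 11.1 and 7.85 and of 11.6, 9.04 and 9.58, and aged ones of 8.10 and 5.75. Atp6v1a, a subunit of the proton pump of lysosomes, had 10.2, 6.82 and 6.55 in young mice and 6.19 in aged mice. The sialidase gene Neu1 had 7.47, 7.52 and 9.48 against 5.48, and Ctsb, which codes for cathepsin B, had 5.28, 5.45 and 5.69 against 3.81. By percentile the aged peak stood below all 3 young ones at Vmp1 (63.1 against 91.0, 70.5 and 71.7) and, by less than 1 point from the lowest, at Ctsb (9.95 against 42.1, 11.5 and 10.7). At Tmem41b (89.4), Atp6v1a (69.9) and Neu1 (56.4) it lay within the range of the young percentiles. These ran from 48.7 to 92.4, from 24.6 to 87.2 and from 50.3 to 70.7. By fold enrichment the aged peaks at Atp6v1a and Neu1 were below all 3 young ones, and the aged list held more weak peaks.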

How the data were processed

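Deposited CUT&RUN-seq peaks from MuSCs of mice were read for 3 JunB libraries labelled Young, 1 labelled Aged and 1 H3K27ac library, and samples were grouped by these labels. The authors trimmed and aligned reads (Bowtie2, mm10), dropped redundant ones and ran MACS2, separately per library. Tool versions and a control library are not given in the sources used here, and the methods also tie the H3K27ac data to a reference epigenome project. Peak names in young replicate 1 carry the word gfp, and the methods name a GFP+ sort for Ctrl and JunB iKO mice, so the sort and genotype of that library are unsettled. The deposited lists give for each peak a fold enrichment (a ratio of pileup at the summit to that library's own local background), a −log10 p and a −log10 q. The deposited −log10 p ranked peaks within a library, chose the summit printed for a region across libraries, and set the common threshold tried as an alternative. The score column was not used.

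Genes and transcript starts came from GENCODE M21 on GRCm38, and sequences from RefSeq GRCm38.p6. A peak counted with at least 1 bp within 3 kb of any start, or with its nearest base more than 3 kb and at most 50 kb away. Shares of members carry exact (Clopper-Pearson) 95% intervals and are set beside the share of all protein-coding genes. No test was made, since there is 1 aged library and the genes are a chosen list. JunB peaks of different libraries were merged into regions where they overlapped by at least 1 bp. Python 3.11.15, numpy 2.4.6, scipy 1.17.1 and matplotlib 3.10.9 were used, and the peak assignment and motif search were tested on simulated data.

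The members and gene lists were chosen with earlier results of these data known. Genes with a promoter peak in all JunB libraries, in the aged library alone or in young libraries alone, and the 5 members with the highest −log10 p per library, were given with positions, and distal regions where all libraries or the 5 strongest had them. Uvrag's distal regions in 3 libraries were added after their values were seen. Alternatives were a promoter window of 1 kb, a distal limit of 20 kb, 5′ gene ends, protein-coding transcripts, the summit as position, −log10 q of at least 2, a common −log10 p, equal numbers of peaks, and leaving out each young library.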

Additional observations from a re-analysis of the deposited data

How the results depend on the processing

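Of 96 alternative values for 13 results, 86 kept their side of the share of all genes and their size within 1.5 times, 6 moved by more and 4 turned their direction. The members' share was above that of all genes in 88. With the 3863 strongest peaks of each list, promoter peaks were at 7 members in the aged library (main count 16), 20% against 8.83% of all genes. In young replicate 1 they were at 4 (main count 7), 11.4% against 5.52%. In young replicates 2 and 3 they were at 6 each, 17.1% against 6.08% and 5.95%. Distal peaks were at 8 in the aged library (main count 24), 22.9% against 21.9%, and at 7 in young replicate 1 (main count 16), 20% against 18.9%. In young replicates 2 and 3 distal peaks were at 11 and 10, 31.4% against 19.3% and 28.6% against 19.7%. The count of members bound in the aged library and no young one was 1 (main count 8), 2.86% against 3.21% of all genes. By construction this alternative removes the weaker peaks of the longer lists. With a distal limit of 20 kb the distal count was 6 in young replicate 1 and 4 in young replicate 3 (main counts 16 and 10), and the narrower window holds fewer peaks. These were 17.1% against 16.6% of all genes and 11.4% against 8.64%. In young replicate 2 and the aged library the 20 kb shares were 22.9% against 10.2% and 45.7% against 26.5%. The count of members bound in young libraries and not the aged one was 1 in place of 0 with −log10 q of at least 2, with a common −log10 p of at least 5.33 (Atg3 in both) and with a 1 kb window (Sqstm1). Leaving out each young library in turn left the 6 members bound in every library at 6, those in the aged library alone at 8 to 9 and those in young libraries alone at 0. No paired analysis was possible because replicate numbers are given for the young libraries alone and no result comes from a test. The unknown depth and the unequal thresholds limit all comparisons between libraries.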

Other observations

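Among the 59 further pathway genes, 4 promoters (6.78%, beside 1.95% of all genes) were called in young libraries and not in the aged one. Prkaa1, which codes for a catalytic subunit of the energy sensor AMPK, had JunB promoter peaks of fold enrichment 5.40, 10.7 and 8.97 in the young libraries, none in aged mice, and its H3K27ac peak was 2.72. Wdr45, a relative of the WIPI genes, had 5.40 and 6.85 in young replicates 1 and 2 and none elsewhere. Tsc1 and Tsc2, whose products restrain mTOR, each had 5.40 in young replicate 1 alone. A further 2 genes, picked after their values were seen, had peaks in both ages. Rubcn, which codes for an inhibitor of the UVRAG complex, had 10.5 (young replicate 2) and 6.74 (aged), at the 81.2 and 77.4 percentiles of their libraries. Calcoco1, a receptor gene, had 9.02 and 8.24 (young replicates 2 and 3) and 4.54 (aged), at the 70.2, 54.7 and 29.0 percentiles. With 1 aged library these differences were not tested.

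Some peaks had the same values: those at Atg12 and Atg13 in the aged library both had a fold enrichment of 5.71 and a −log10 p of 8.33, and those at Atg3 and Pik3r4 both had 3.63 and 4.28. In young replicate 1 the fold enrichment was 5.40 at each of Atg16l2, Prkaa1, Tsc1, Tsc2 and Wdr45, and 4.98 at both Foxo3 and Tfe3. The 5.40 of the young-only genes above is thus a value shared by several peaks.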
